A study of Mus musculus with 6 samples.

Results

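Collagen genes were followed through the first days of embryonic stem cell (ESC) differentiation, with and without forced expression of 2 microRNAs. They were taken as every gene whose single platform symbol has the form of a collagen chain name (Col, a type number, a and a chain number), which gave 42 of 18193 genes, each read from 1 probe set, the one brightest on average across all 6 arrays. Of the 42 genes, 11 encode fibrillar collagens, 8 encode basement membrane collagens (the type IV chains and the multiplexins Col15a1 and Col18a1) and 23 encode other types. The choice used symbols and mean intensity and no comparison between cultures. RNA came from A2.miR200c cells, a mouse ESC line derived from A2lox cells and carrying the miR-200c and miR-141 genes behind a promoter that doxycycline switches on. The cells were grown as embryoid bodies, floating aggregates in which differentiation starts, in medium with fetal calf serum. Untreated cultures carried the same transgene without doxycycline, and induced cultures received 500 ng/mL doxycycline on days 2 and 4. RNA was taken on days 3, 4 and 5, with 1 Affymetrix MOE430 2.0 array for each treatment on each day. No line lacking the microRNA transgene was on these arrays, so an effect of doxycycline cannot be told apart from an effect of the microRNAs. RNA came from whole embryoid bodies, in which fewer cells of a type and less RNA per cell cannot be told apart.

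Most collagens are secreted proteins whose chains wind into a helix inside the endoplasmic reticulum before export. Fibrillar collagens, such as type I and type V, pack into the fibers that give connective tissue its strength and are typical products of mesenchymal cells. Type IV collagen instead forms the sheet-like network of basement membranes, which underlies epithelia from early embryonic stages and holds laminin, nidogen and perlecan. The miR-200 family is known for keeping cells epithelial by silencing Zeb1 and Zeb2, repressors of E-cadherin, and the study used this line to ask what the family does during ESC differentiation.

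The mature microRNAs made by the transgene are shown because their seeds, the bases that pair with target messages, define the induction. They are the RefSeq entries of the GRCm38.p6 build, at chr6:124718324-124718346 and chr6:124717917-124717938 on the minus strand, printed 5′ to 3′ with the seed (bases 2 to 8) in capitals.
mmu-miR-200c-3p: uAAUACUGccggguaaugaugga
mmu-miR-141-3p: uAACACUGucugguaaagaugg
Counting from 1 at the 5′ end, the seeds differed at 1 base, U4C, with the miR-200c base given first.

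Most collagen genes were at or near background in these cultures. With a background intensity of 36.7, set from receptor genes of smell and taste that stem cells do not need, 16 of the 42 genes were not above background on any array. They were Col5a2, Col5a3, Col11a2, Col24a1, Col4a3, Col4a4, Col4a6, Col6a3, Col6a5, Col8a1, Col8a2, Col9a2, Col10a1, Col14a1, Col16a1 and Col17a1, with values from 1 to 33.7. Another 14 exceeded background on at least 1 array but stayed under the filter for testing (a highest value of at least 80.1, the median of all gene values), with values from 3.97 to 74.6. The remaining 12 of the 42 genes were tested, where 9997 of all 18193 genes were. They comprised 4 fibrillar genes (Col1a1, Col1a2, Col5a1 and Col27a1), 4 basement membrane genes (Col4a1, Col4a2, Col4a5 and Col18a1) and 4 others (Col7a1, Col9a1, Col12a1 and Col13a1). Col1a1, Col4a5 and Col9a1 reached the filter only through a day 5 array, so the counts that follow describe the genes tested and not all collagens. The number of collagen genes above background was 15, 20 and 21 in untreated and 14, 16 and 19 in induced cultures, day by day. No such count was made over all 18193 genes, so the counts above background are not read as a result about collagens.

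Array medians lay between 34.5 and 36.9 and differed little. With 1 array per treatment and day, a difference within a day has no error and no test, and precision is limited by how few arrays there are. The day comparison was tested with limma over all 6 arrays with treatment and day as terms, so its spread is the departure from parallel time courses in the 2 treatments. Log2 values are of intensity plus 50, which damps changes at low intensity, and each fold below is on that scale.

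Between day 3 and day 5 the collagen genes changed mostly upward. Of the 12 tested, 7 rose (Col1a1, Col1a2, Col5a1, Col4a1, Col4a2, Col4a5 and Col9a1), where 20.6% of all 9997 genes tested rose. Of these, Col1a1, Col4a5 and Col9a1 were tested only through a day 5 array. The filter thus favoured their rises, here and in the medians below. Only Col18a1 of the 12 fell, where 19.2% of all genes fell. The median change, day 5 minus day 3, was 0.76 on the log2 scale for the 12 collagen genes and 0.00 for all genes. By class it was 1.46 for the fibrillar genes, 1.35 for the basement membrane genes and 0.24 for the others. This comparison leaned on the untreated day 3 array: without it 3 genes still rose (Col5a1, Col4a1 and Col4a2), and the highest adjusted p among the fits lacking 1 array was 0.134 for Col1a1, 0.058 for Col4a5 and 0.0852 for Col9a1, each in the fit without that array.

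**Figure D1:**
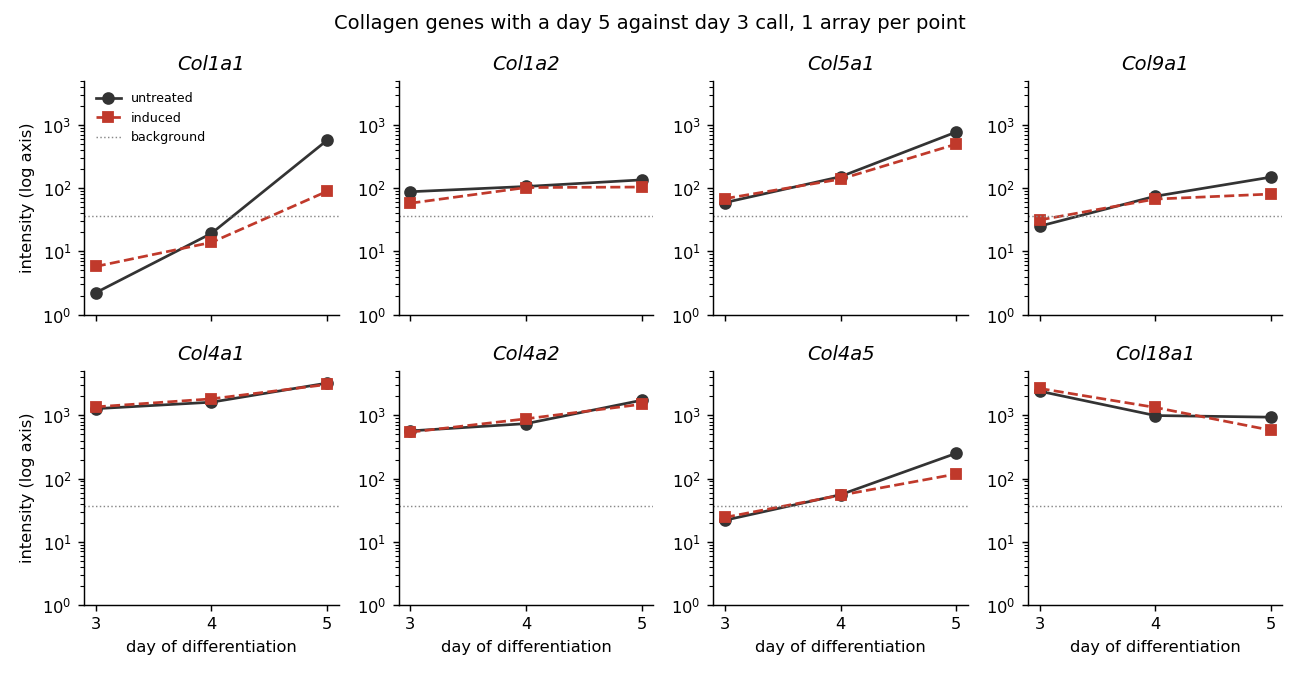
Model-based intensity (log axis) against day of differentiation for the 8 collagen genes called between day 3 and day 5, with 1 array per point, untreated cultures as circles on a solid line and induced cultures as squares on a dashed line. The dotted line is the background of 36.7. Col4a1 and Col4a2 ran nearly together in the 2 treatments, Col1a1 parted on day 5 (577 untreated and 89.7 induced), and Col18a1 declined from 2417 and 2675 on day 3.

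Col4a1 and Col4a2, the pair of chains that make up the common type IV network of nearly all basement membranes, were far above background from day 3 on. Their genes lie head to head and are known for sharing a promoter. In the RefSeq windows of GRCm38.p6, which run from 250 bases before to 50 bases after each annotated start, Col4a1 (chr8:11312777-11313076, minus strand) and Col4a2 (chr8:11312555-11312854, plus strand) shared 78 bases, and the annotated starts were 21 bases apart. The pair is shown because these members moved together, with the shared bases in capitals, each on its own gene's strand.
Col4a1: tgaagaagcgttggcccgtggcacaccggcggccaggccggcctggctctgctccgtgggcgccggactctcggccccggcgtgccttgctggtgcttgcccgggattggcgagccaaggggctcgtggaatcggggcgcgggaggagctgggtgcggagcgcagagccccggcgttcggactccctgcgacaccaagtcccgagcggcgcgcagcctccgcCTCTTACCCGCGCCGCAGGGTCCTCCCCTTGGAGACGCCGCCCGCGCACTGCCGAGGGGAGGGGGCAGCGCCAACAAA
Col4a2: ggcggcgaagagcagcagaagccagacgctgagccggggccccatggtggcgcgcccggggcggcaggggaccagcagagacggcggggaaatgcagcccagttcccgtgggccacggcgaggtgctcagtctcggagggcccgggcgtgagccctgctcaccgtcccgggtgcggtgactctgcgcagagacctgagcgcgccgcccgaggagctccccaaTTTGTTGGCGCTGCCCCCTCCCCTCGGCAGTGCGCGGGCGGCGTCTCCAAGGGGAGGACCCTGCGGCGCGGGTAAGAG
The windows were rich in G and C (74.0% and 73.7%, against a median of 52.7% over 32851 windows), and the Sp1 box GGGCGG, searched on both strands, was found 1 time in the first and 3 times in the second (a box within the shared bases counts in both), while 35.7% of all windows held at least 1.

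Col4a1 read 1278, 1619 and 3252 untreated, by day, against 1365, 1827 and 3090 with induction. Col4a2 stood at 568, then 741, then 1739 untreated, and at 543, 883 and 1502 induced over the 3 days. For both genes every day 5 value was above every earlier value, and the treatments stayed close on each day. Col4a1 rose by 1.23 ± 0.08 (SE) on the log2 scale (limma adjusted p = 0.0017) and Col4a2 by 1.46 ± 0.13 (adjusted p = 0.0025). A second probe set of Col4a1 went from 967 untreated and 944 induced on day 3 to 2384 and 2621 on day 5. There the induced day 5 value was the higher.

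Col4a5 and Col4a6 are a further head-to-head pair, on the X chromosome, whose products join in the basement membranes of some epithelia and smooth muscle. Here the windows (Col4a5, chrX:141475169-141475468, plus strand, and Col4a6, chrX:141474027-141474326, minus strand) did not overlap, and the annotated starts lay 1343 bases apart. They are shown as the pair of which only 1 gene was detected, with the single GGGCGG box of each, on either strand, in capitals.
Col4a5: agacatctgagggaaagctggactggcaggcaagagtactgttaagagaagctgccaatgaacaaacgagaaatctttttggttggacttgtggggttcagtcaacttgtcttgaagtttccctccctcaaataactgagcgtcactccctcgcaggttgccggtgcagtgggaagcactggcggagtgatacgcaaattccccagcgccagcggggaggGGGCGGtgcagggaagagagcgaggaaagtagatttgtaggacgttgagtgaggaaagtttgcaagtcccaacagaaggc
Col4a6: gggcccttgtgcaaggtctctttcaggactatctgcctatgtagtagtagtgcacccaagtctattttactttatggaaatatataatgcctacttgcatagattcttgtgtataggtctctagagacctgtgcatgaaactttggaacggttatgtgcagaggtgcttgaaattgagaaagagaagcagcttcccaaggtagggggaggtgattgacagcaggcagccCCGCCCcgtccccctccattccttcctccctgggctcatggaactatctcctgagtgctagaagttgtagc
Their G and C content was 52.7% and 48.3%. A motif match describes these letters only and is not a bound site.

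Col4a5 was below background on day 3, at 21.8 untreated and 24.3 induced, reached 55.5 and 54.4 on day 4, and stood at 251 and 118 on day 5. It rose by 1.62 ± 0.25 (limma adjusted p = 0.0084), and the 2 treatments were alike until day 5, when the untreated value was the higher. A second probe set of Col4a5 was never above background, at 33.7 untreated and 34.7 induced on day 5. Col4a6 stayed below background throughout, with 33.7, 25.5 and 24.4 untreated and 16.7, 31.5 and 16.6 induced on the 3 days. The other paired type IV genes, Col4a3 and Col4a4, whose chains join Col4a5 in the kidney glomerulus, were also never above background.

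Col18a1, the multiplexin of basement membranes whose end fragment is endostatin, ran the other way. It read 2417, 995 and 938 untreated, by day, against 2675, 1337 and 582 with induction. Both day 3 values were above all later ones, and the gene fell by 1.71 ± 0.25 on the log2 scale (limma adjusted p = 0.0078), a call kept in all 6 fits that left out 1 array. A second probe set above background declined likewise, from 2090 to 1047 untreated and from 2338 to 745 induced between days 3 and 5. In untreated cultures the log2 change was -1.24 from day 3 to day 4 and -0.08 from day 4 to day 5, and in induced cultures it was -0.97 and -1.13.

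Among fibrillar collagens, Col5a1 encodes a chain of type V collagen that helps to start fibrils. It stood at 59.4, then 153, then 780 untreated, and at 68.6, 140 and 502 induced over the 3 days, and it rose by 2.57 ± 0.18 (limma adjusted p = 0.0019). Its usual partner Col5a2 stayed below background, between 21.6 and 28.9 on the 6 arrays. The other probe sets of Col5a1 stood on day 5 at 310 and 72.4 untreated, against 237 and 64.8 induced.

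Col1a1, the main chain of type I collagen, read 2.22, 19.3 and 577 untreated, by day, against 5.78, 13.9 and 89.7 with induction. All day 3 and day 4 values were below background, and the untreated day 5 value stood far above the rest. It rose by 2.46 ± 0.57 (adjusted p = 0.025), a change whose size depends on the pseudocount because the early values were below background. A second probe set of the gene had the same order, with 249 untreated and 43.3 induced on day 5 and between 13.9 and 17.5 before. Col1a2, the partner chain of type I collagen, moved far less, with 88.2, 107 and 136 untreated and 58.1, 103 and 105 induced on the 3 days. Its rise of 0.47 ± 0.13 (adjusted p = 0.037) was lost in 5 of the 6 fits without 1 array (adjusted p from 0.0467 to 0.181 over the 6), and its other probe sets never exceeded background. Levels of different probe sets cannot be compared, so the amounts of the 2 chains were not set against each other. Col27a1, a fibrillar collagen of cartilage, read 96.7, 125 and 96.7 untreated, by day, against 95.6, 108 and 91.5 with induction, with no call (adjusted p = 0.895).

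Of the other collagens only Col9a1 passed. This chain of type IX collagen, which decorates fibrils in cartilage and the eye, stood at 25.1, then 74.9, then 150 untreated, and at 31.5, 67.5 and 81.1 induced over the 3 days, a rise of 1.05 ± 0.20 (limma adjusted p = 0.015). A second probe set of Col9a1 was never above background, at 29.5 untreated and 28.4 induced on day 5. The partner chain Col9a2 stayed under 14.4 on every array, and Col9a3 was above background only in the untreated day 5 culture (45.8). Of 5 cartilage markers, Acan and Comp were below background on all arrays, and the regulator Sox9 exceeded background only on day 5 (54.6 and 48.7). Matn1 did so in the untreated day 4 and day 5 cultures (46.9 and 39.2), and Matn3, at 139 and 115 on day 3, fell by 1.31 ± 0.16 (limma adjusted p = 0.0049). Col7a1, the anchoring fibril collagen, Col12a1, a fibril-associated collagen, and Col13a1, a transmembrane collagen, ranged from 62.5 to 113, from 58.5 to 83.8 and from 52.3 to 117 over the 6 arrays and did not pass (adjusted p from 0.150 to 0.840).

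Induction was then compared with no treatment. Over days 3 to 5 none of the 12 collagen genes passed in limma, as for all genes (0%), and none had an unadjusted p under 0.05, while 8.42% of all genes did. That fit looks for an equal difference on each day, and the daily values did not have that form. With a linear trend of the difference over days added, the fit gives the difference at day 4 and leaves 1 residual degree of freedom. It called 103 of all 9997 genes tested higher and 42 lower with induction. No collagen was among them, and shares this small say little about 12 genes. On day 3 the log2 differences, induced minus untreated, lay between -0.35 and 0.14, and on day 4 between -0.51 and 0.41, with none of the 12 genes at 2-fold lower (0.500% of all genes).

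Differences appeared on day 5, mainly on the lower side. Induced cultures had the lower value for 9 of the 12 genes, and for 10 after quantile normalization, where Col7a1 crossed zero, against 46.7% of all genes. The 4 fibrillar genes were lower under each scaling and probe set rule tried, and the 4 basement membrane genes too, except that Col4a1 turned to 0.03 higher with the mean of its probe sets. Of the 4 other genes Col9a1 was lower, and the rest were between 0.03 and 0.12 higher, except that Col7a1 under quantile normalization and Col12a1 with the mean of probe sets turned slightly lower. The median difference was -0.23 for the 12 genes, -0.43 for the fibrillar genes, -0.42 for the basement membrane genes and 0.07 for the others, beside 0.02 for all genes tested. Fibrillar genes above background on some array but not tested were mixed on day 5. Col2a1 (26.3 untreated and 54.4 induced) and Col11a1 (44.05 and 53.4) were higher with induction, and Col3a1 (50.3 and 14.1) was lower.

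Col1a1 was the only collagen 2-fold lower on day 5 (log2 difference -2.17, 4.49-fold), where 1.52% of all genes were. At 1.5-fold 5 collagens were lower, where 3.51% of all genes were. These were Col1a1, Col4a5 (-0.84, 251 untreated and 118 induced), Col18a1 (-0.64, 938 untreated and 582 induced), Col9a1 (-0.61, 150 untreated and 81.1 induced) and Col5a1 (-0.59, 780 untreated and 502 induced). With the mean of all probe sets of a gene, of these only Col1a1 (-1.92) stayed past 1.5-fold. Col18a1 was then at -0.55, Col4a5 at -0.41, Col5a1 at -0.34 and Col9a1 at -0.32. By contrast the major type IV chains hardly differed on that day, with -0.07 for Col4a1 and -0.20 for Col4a2. As there was 1 array per treatment on day 5, none of these differences carries a test.

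**Figure D2:**
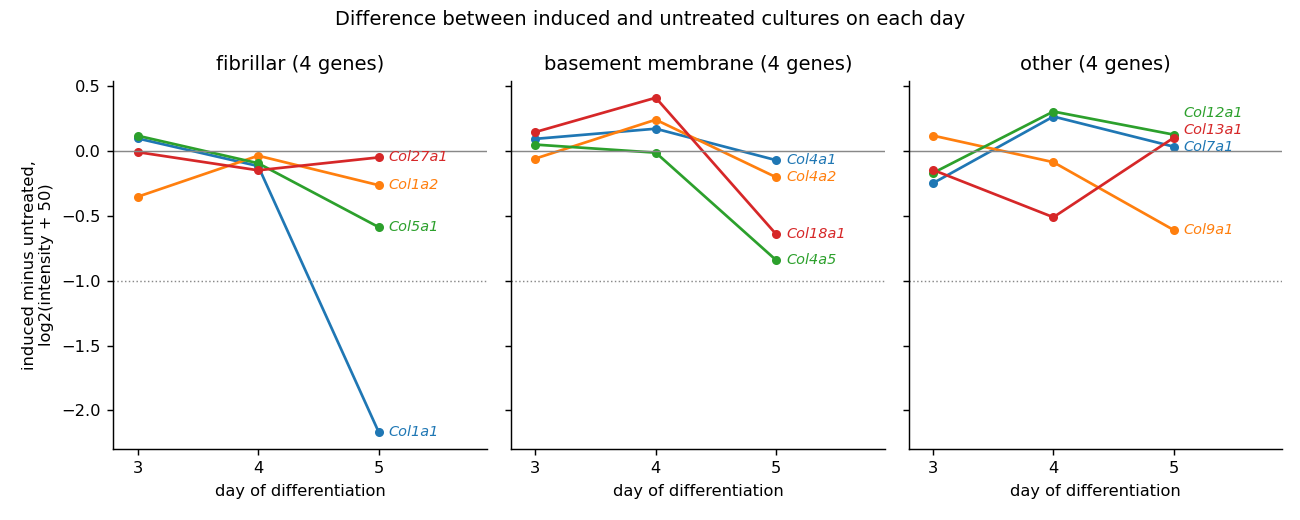
Difference between induced and untreated cultures, log2(intensity + 50), on days 3, 4 and 5 for the 12 collagen genes tested, in 3 panels by class, with 1 array per treatment and day and the dotted line at 2-fold lower. On days 3 and 4 the values lay between -0.51 and 0.41, and on day 5 they reached -2.17 for Col1a1, -0.84 for Col4a5, -0.64 for Col18a1 and -0.61 for Col9a1.

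The change of the difference with time was tested as a linear trend per day. None of the 12 genes passed after adjustment (0% of all genes did). Col1a1 (-1.13 ± 0.26 per day, limma adjusted p = 0.190), Col5a1 (-0.35 ± 0.10), Col4a5 (-0.45 ± 0.15) and Col9a1 (-0.36 ± 0.13) had an unadjusted p under 0.05, all downward, where 5.44% of all genes were downward at that threshold. Of these, Col1a1, Col4a5 and Col9a1 were tested only through a day 5 array and were below background on day 3. Their differences could therefore show mainly on later days, and the share of all genes is no measure of enrichment for them. The trend of Col18a1 was -0.39 ± 0.17 per day (adjusted p = 0.405). For Col4a1 and Col4a2 it was -0.08 ± 0.07 and -0.07 ± 0.12.

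Seen by treatment, the larger changes were mostly present in both. Between day 3 and day 5, 6 of the 12 genes were at least 2-fold higher in untreated cultures (Col1a1, Col5a1, Col4a1, Col4a2, Col4a5 and Col9a1), where 5.93% of all genes were, and 5 in induced cultures, where 4.67% of all genes were. The gene missing from the induced group was Col9a1, with a log2 change of 1.41 untreated and 0.69 induced. Col1a1, Col4a5 and Col9a1 passed the filter only through a day 5 array, which favoured their rises in these counts. Col18a1 was at least 2-fold lower in both treatments, where 4.86% of all genes were in untreated and 3.07% in induced cultures. The change of Col1a1 was 3.59 untreated and 1.32 induced, that of Col5a1 was 2.92 and 2.22, and that of Col4a5 was 2.07 and 1.18. Col4a1 (1.31 and 1.15) and Col4a2 (1.53 and 1.39) changed by almost as much with induction as without. The median change of the 12 genes was 0.87 untreated and 0.60 induced, and for 8 of them the change was the more positive in untreated cultures, where it was for 4679 of the 9997 genes.

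**Figure D3:**
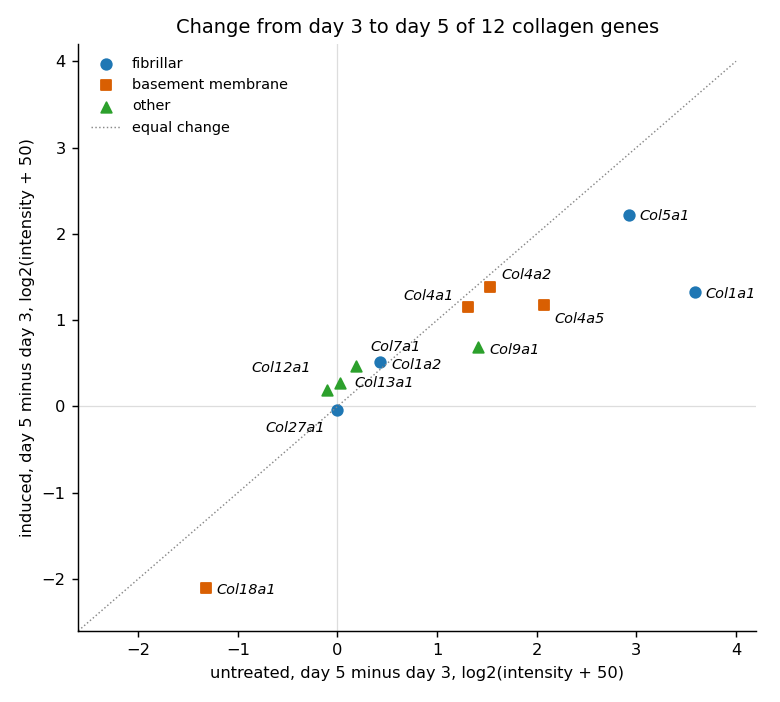
Log2 change from day 3 to day 5 in induced cultures (vertical) against untreated cultures (horizontal) for the 12 collagen genes tested, 1 array per treatment and day, with a dotted line at equal change. Col1a1 lay farthest below the line (3.59 untreated and 1.32 induced), Col4a1 and Col4a2 lay close to it, and Col18a1 was the only gene with clear declines in both (-1.32 and -2.11).

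Among the collagens too low to test, Col26a1 gave 71.4 in the untreated day 5 culture and between 3.97 and 16.9 elsewhere. Col3a1, the fibrillar chain of soft connective tissue, was above background only in that same culture (50.3, against 14.1 induced and 9.84 to 22.4 on the other arrays). Col23a1, a transmembrane collagen, gave 20.3, 40.7 and 58.7 in untreated cultures of days 3, 4 and 5, and 20.3, 30.8 and 48.9 in the induced ones. Col2a1, the cartilage collagen that is also made in early embryos, read 57.6, 30.0 and 26.3 untreated, by day, against 74.6, 32.2 and 54.4 with induction. The type VI chains Col6a1 and Col6a2 were above background on all arrays (38.3 to 72.9) and Col6a3 on none. When all genes were tested without a filter, Col6a4, Col23a1 and Col25a1 also rose between day 3 and day 5, and Col1a2 was no longer called.

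For the CACCTG box, the sequence bound by the Zeb and Snail repressors, promoter windows were searched on both strands. Windows were found for 33 of the 42 collagen genes, 36 in all, and Col1a1 had none in the table. The box occurred in 5 of the 36 windows, 13.9%, against 20.2% of all 32851 windows, and in 0 of the 9 windows of the genes called for day. No match says only that these letters are not within 250 bases before and 50 bases after the annotated start.

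Genes that make, export and assemble collagen were listed by role, together with its matrix partners, receptors and breakdown genes. Of these 57 on the array, 39 were tested. Between day 3 and day 5, 20 of the 39 rose (20.6% of all genes did) and 3 fell (19.2%), and without the untreated day 3 array 9 rose and 1 fell. On day 5, 30 of the 39 were lower with induction (46.7% of all genes were), with a median log2 difference of -0.18 beside 0.02 for all genes, and 2 of them, Mmp2 and Nid1, were 2-fold lower (1.52% of all genes). The calls by role below are to be read against the same shares. Bgn, Postn and Loxl1 reached the filter only through a day 5 array, which favoured the rises of Bgn and Postn, here and by role. Postn and Loxl1 did so only in the untreated day 5 culture, which favoured their lower values with induction.

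Enzymes that modify collagen chains showed 5 rises among 11 tested (20.6% of all genes rose) and no fall (19.2% fell) (P4ha1, P4hb, Plod1, P3h2 and Ppib), and all 11 had the lower value with induction on day 5. Those log2 differences ran from -0.03 for Plod1 and Ppib and -0.06 for P3h1, which hardly differed, to -0.995 for P4ha2. P4ha1, a catalytic subunit of the prolyl 4-hydroxylase that stabilizes the helix, stood at 262, then 420, then 1034 untreated, and at 285, 450 and 595 induced over the 3 days, a rise of 1.37 ± 0.23 (limma adjusted p = 0.0109). P4ha2, its relative, gave 352, 470 and 1000.3 in untreated cultures of days 3, 4 and 5, and 346, 567 and 477 in the induced ones and did not pass (adjusted p = 0.0686). In both, induced and untreated cultures were close until day 5, when the untreated value was well above the induced one. P3h2, a prolyl 3-hydroxylase active on type IV collagen, stood at 189 untreated and 109 induced on day 5.

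Of 7 tested genes for folding and export, 4 rose (Serpinh1, Kdelr2, Kdelr3 and Creb3l2) and Sec24d fell. Serpinh1, the collagen chaperone Hsp47, read 457, 990 and 2484 untreated, by day, against 417, 1020 and 2195 with induction. Its rise of 2.29 ± 0.09 (limma adjusted p = 0.0013) was of nearly the same size in both treatments. Sec24d, a coat protein of the vesicles that leave the endoplasmic reticulum, fell by 1.39 ± 0.14 (adjusted p = 0.0034), from 661 and 681 on day 3 to 244 and 209 on day 5. All 7 were lower with induction on day 5, with differences from -0.12 for Mia3, which helps to load procollagen into vesicles, to -0.66 for Creb3l1, a transcription factor that can activate collagen genes.

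Of 6 tested genes for procollagen processing and cross-linking, 3 rose (Bmp1, Adamts3 and Pcolce) and Pcolce2 fell. Bmp1, the protease that trims the ends of fibrillar procollagens, stood at 92.9, then 191, then 445 untreated, and at 99.7, 138 and 404 induced over the 3 days, a rise of 1.70 ± 0.13 (limma adjusted p = 0.0023). Pcolce, which speeds up Bmp1, and Adamts3, another procollagen protease, differed on day 5 by -0.73 (380 untreated and 209 induced) and -0.69 (197 and 103). Pcolce2 fell by 0.87 ± 0.16 (adjusted p = 0.013), with 82.6 untreated and 151 induced on day 5. Of the lysyl oxidases, which cross-link collagen, Lox itself was never above background, and Loxl1 measured 110 untreated and 48.0 induced on day 5 without a day call.

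Among the 7 tested partners of collagen in the matrix, 5 rose (Bgn, Sparc, Nid1, Fbln1 and Postn). Nid1, the nidogen that links type IV collagen to laminin, gave 200, 194 and 825 in untreated cultures of days 3, 4 and 5, and 211, 209 and 370 in the induced ones, 2.09-fold lower with induction on day 5. Nid2, the other nidogen, had the opposite order on day 5, with 1650.0 untreated and 2196 induced, and no day call. Bgn, a small proteoglycan that binds type I collagen, went from 2.46 and 4.13 on day 3 to 175 and 99.8 on day 5, and Postn, a matricellular protein of mesenchyme, from 1.75 and 1.23 to 83.2 and 24.8. Sparc, a collagen-binding protein abundant in basement membranes, differed little between treatments on day 5 (6208 and 5657).

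Collagen receptors and breakdown enzymes were less uniform. Of 3 tested receptors only Itgb1, the integrin beta subunit shared by the collagen-binding integrins, rose (0.44 ± 0.12 on the log2 scale, limma adjusted p = 0.042), and Itgb1 (985 and 1170) and Ddr1 (1528 and 1903), a receptor kinase of epithelial cells, had the higher value with induction on day 5. Mmp14 and Timp2, a membrane protease and its inhibitor partner, rose, and Timp1 fell. Mmp2, the type IV collagenase, read 284, 261 and 713 untreated, by day, against 262, 190 and 222 with induction. The untreated day 5 culture stood alone, 2.8-fold above the induced one, and the day comparison was not called (adjusted p = 0.292).

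**Figure D4:**
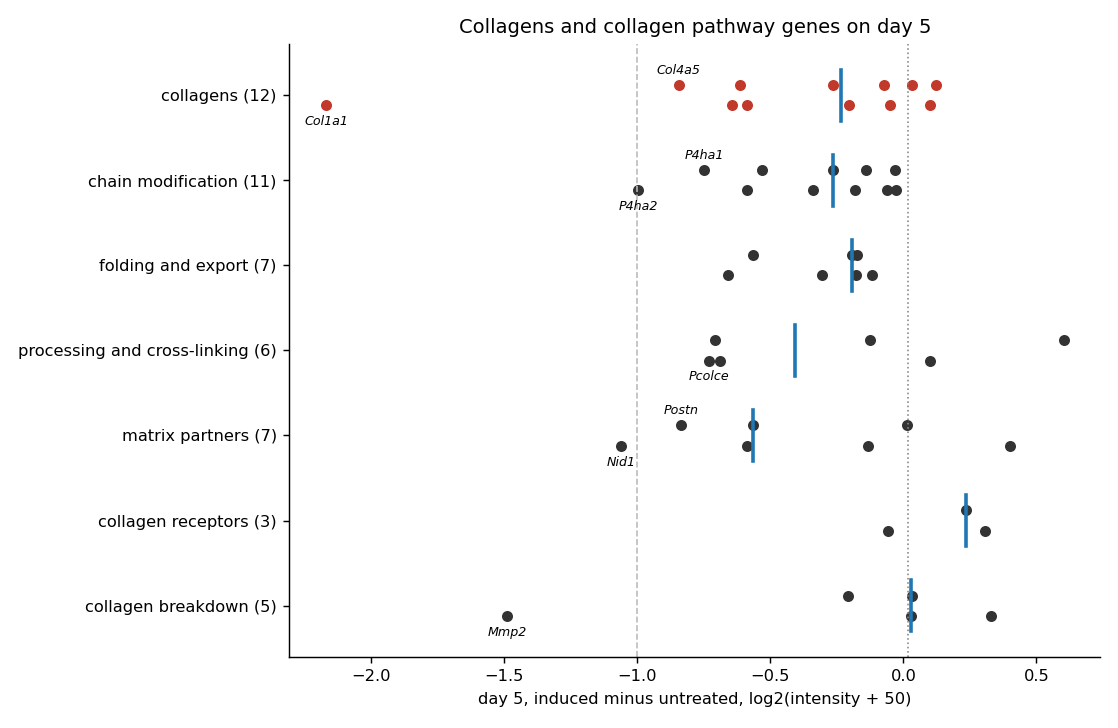
Difference between induced and untreated cultures on day 5, log2(intensity + 50), for the 12 collagen genes (red) and the 39 tested genes of 6 pathway lists (black), 1 array per treatment, with list medians as blue bars, a dotted line at the median of all genes (0.02) and a dashed line at 2-fold lower. Col1a1, Mmp2 and Nid1 lay past 2-fold lower, and the medians of the collagens and of the first 4 lists were below that of all genes.

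Markers of several cell types, some of which make collagen, were read on the same arrays, and they did not all move the same way. Parietal endoderm, an extraembryonic cell type, makes much type IV collagen and laminin. Of 14 extraembryonic endoderm markers 9 were above background on at least 1 array, and their summed intensity ranged from 1156 to 1371 on day 3, 2099 to 3083 on day 4 and 5502 to 5911 on day 5. Sox17 made up most of the day 5 sum (2914 untreated and 3875 induced) and, like Gata4 and Gata6, is also used by embryonic endoderm or mesoderm, whereas Afp, Apoa1, Apob, Hnf4a and Thbd were never above background. Cubn (224 to 465), Amn (71.2 to 127) and Dab2 (175 to 253) were above background on all arrays without a day call, Ttr was above background on 4 arrays, and Plat, a parietal endoderm product, rose by 0.78 ± 0.13 (limma adjusted p = 0.0098), to 115 untreated and 106 induced. Sox7 was 756 untreated and 167 induced on day 5.

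Early mesoderm markers, apart from T, which was not analysed here, summed to 271, 6100 and 6973 in untreated cultures day by day, and to 226, 2820 and 6558 in induced ones. Of these, Pdgfra, a receptor of mesenchymal mesoderm, stood at 1330 untreated and 698 induced on day 5, and Kdr, a receptor of endothelial precursors, at 3158 and 1763. Mixl1, a gene of the primitive streak, had the opposite order there (1714 and 3373), and Mesp1 (709 and 660) and Tbx6 (62.5 and 64.0) differed little. The ESC and epiblast markers, among them Pou5f1 and Nanog, summed to 3693 untreated and 11529 induced on day 5. Of 9 fibroblast markers, listed because the line is kept on fibroblast feeders before differentiation, 6 were above background on at least 1 array, and their sum, most of it Pdpn, was 1275, 979 and 858 untreated and 1500.4, 1481 and 1092 induced, in day order. Thy1 was at 28.5 or lower on day 5, while Twist2 (176 untreated and 29.5 induced) and Cd248 (57.3 and 13.7), both mesenchymal, were above background only in the untreated day 5 culture, as Col3a1 was, and Prrx1 only in the induced one (34.8 untreated and 43.7 induced). The part of any of these cell types in the collagen differences was not tested.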

How the data were processed

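RNA of 6 cultures was hybridized to Affymetrix MOE430 2.0 arrays, 1 per treatment and day. The deposited values were intensities that the authors normalized and modelled in DNA-Chip Analyzer (dChip), 1 value per probe set on a linear scale. The dChip version, baseline array and background option are not given in the sources used here, and no detection calls were used. Such values depend on the other arrays of the set, and low values can lie near 0.

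Of 45037 probe sets, 34945 had a single gene symbol in the platform annotation, and the 932 with several and 9160 without any were not used. There were 82 collagen probe sets, and 27 of the 42 collagen genes had more than 1. Each gene took its probe set with the highest mean. Background was the 95th percentile of 78 genes of chemosensory receptors, for smell, pheromones and taste. Genes with a highest value of at least 80.1 (9997) were tested on log2(intensity + 50) in R 4.3.3 with limma 3.58.1 (lmFit, then eBayes with an intensity trend, two-sided, Benjamini-Hochberg at 0.05 over all 9997). Treatment plus day left 2 residual and 3.05 prior degrees of freedom, and treatment by linear day left 1 residual degree. Nothing in the labels ties arrays to separate experiments. The p-values rest on the departure of these arrays from the fitted terms and not on a spread between replicates. The tests were checked on simulated data.

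Values were given for collagens past a test or past 2-fold between treatments or between days 3 and 5, and for their chain partners, and for up to 4 genes of each pathway list. Other genes named were chosen after their values were seen. Members and lists were chosen with earlier results of these data known. Adamts2, Adamts14, Fkbp10, Itga11 and Loxl2 of the lists had no single-symbol probe set used here. Alternatives were a pseudocount of 16, no filter, the mean of all probe sets of a gene, quantile normalization, no intensity trend, leaving out each array or day, and a 1.5-fold threshold. Promoter and microRNA sequences are from RefSeq (GRCm38.p6).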

Additional observations from a re-analysis of the deposited data

Results flagged for a closer look

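Col18a1 differed between treatments in opposite directions on 2 neighbouring days. Its log2 difference, induced minus untreated, was 0.41 on day 4 (995 untreated and 1337 induced) and -0.64 on day 5 (938 and 582), and a second probe set had the same signs (0.33 and -0.46). The difference between days 4 and 5 was not tested, and a linear trend over the 3 days was not called (limma adjusted p = 0.405).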

How the results depend on the processing

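The count of 7 collagens higher on day 5 than on day 3 was 3 to 7 over the fits that left out 1 array, lowest without the untreated day 3 array, and 6 to 9 under every other alternative. The count of 1 lower (Col18a1) became 2 with the mean of all probe sets, where Col6a2 joined it, and was 1 under every other alternative, including each fit that left out 1 array. Among pathway genes, 20 higher and 3 lower on day 5 became 9 to 24 higher and 1 to 3 lower over the fits without 1 array, the lowest of each without the untreated day 3 array. At 1.5-fold, 5 collagens rather than 1 were lower with induction on day 5, and of these only Col1a1 with the mean of all probe sets. The cause of these changes was not tested, except that a fit without 1 array or day has fewer residual degrees of freedom. Induction and its change per day gave 0 collagens under all alternatives run for them. Quantile normalization moved the median difference of all genes by at most 0.012. No result reversed its direction in a test. No paired analysis was possible because each treatment and day had a single array, and day was already a term of the fit. Signals near the background of 36.7 limit what can be said of the 30 collagens that were not tested.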
